A study of Rattus norvegicus with 16 samples.

Results

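Potassium channel genes were followed across the left ventricle of female rats from a line bred for high treadmill running capacity (HCR) and a line bred for low capacity (LCR). The members were all genes whose symbol begins with Kcn in the array annotation, taken from probe sets that carry a single symbol. They came to 126 probe sets for 75 genes, of 14217 genes named in this way on the array. For counts, each gene was represented by its probe set of highest mean, and 31 of the genes had more than 1 probe set. Genes without a single symbol on the annotation table, such as Kcnn2, were not analysed here.

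The rats belonged to generation 16 of the selection, which started from the N:NIH stock, and were killed at about 7 months of age. In each line 4 rats remained sedentary and 4 ran aerobic intervals on an inclined treadmill for 8 weeks, on 5 days a week and for 1.5 hours a session. The groups are called HCR sedentary, HCR trained, LCR sedentary and LCR trained. Each line is 1 breeding population, so a difference between the lines cannot be told apart from other differences fixed by chance during breeding. RNA of each rat was measured on its own Affymetrix RAE 230 2.0 array, 16 arrays in all. Values are log2 RMA values, which measure the signal of a probe set and do not rank different genes against each other.

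Potassium channels carry the outward current that ends the cardiac action potential and holds the resting potential. Voltage-gated pores of the Kv families give the transient outward and the delayed rectifier currents. Inward rectifiers, the Kir family, set the resting potential, respond to G proteins or, together with sulphonylurea receptors, close when ATP is plentiful. Two-pore channels leak potassium, calcium-activated channels couple the membrane to calcium, and accessory subunits such as KChIP, KCNE and Kv-beta proteins tune the pores. In rodents the transient outward current is the main repolarising current of the ventricle.

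The defining markers of ventricular myocytes gave clear signal. All 13 measured ones lay above background, with mean levels from 7.30 to 14.30, the latter for Myl2, the regulatory myosin light chain of the ventricle. Of 8 measured atrial markers 1 was near background, and they reached 12.73. Signal above background thus does not by itself tell ventricle from atrium. Array medians ran from 5.85 to 5.95, and arrays correlated at r of 0.984 to 0.995 across probe sets. One array went against its label: HCR sedentary rat 5 read 3.76 to 4.94 on the 4 probe sets of Xist, the RNA of the inactive X chromosome in females, where the other 15 rats read 7.56 to 10.34. The main counts, medians and calls that include this rat are followed by their values without it.

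Many potassium channel genes gave little signal in this tissue. A gene was counted as near background where its mean level was at or below 5.59, the 90th percentile of 41 probe sets for odorant, vomeronasal and taste receptors, which a ventricle is not known to use. Of the 75 genes, 34 were near background and 41 above it. Near background lay some genes known for their part in the heart, among them Kcnj2 and Kcnj12 (classical inward rectifiers), Kcna4 and Kcna5 (Kv1 pores), Kcne1 (partner of the slow delayed rectifier) and Kcnma1 (the large calcium-activated channel). A low array signal does not show that the RNA is missing, since signal also depends on the probes. The highest mean levels were those of Kcnip2 at 12.16, Kcng2 at 10.11, Kcnj11 at 9.77, Kcnk3 at 9.20, Kcnj5 at 8.30 and Kcnq1 at 8.24, and these 6 were the only members at 8 or more.

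Between sedentary rats, 4 potassium channel genes were higher and 1 was lower in HCR than in LCR, and all of these differences were small. Kcnj3, the G-protein-gated pore Kir3.1, rose 1.34-fold, Kcnd2, the transient outward pore Kv4.2, 1.22-fold, Kcnip3, the KChIP3 subunit, 1.14-fold, and Kcnma1 1.20-fold. Kcnj11, the ATP-sensitive pore Kir6.2, fell 1.20-fold. A gene was called where the limma fit over all 31042 probe sets gave a Benjamini-Hochberg adjusted p of 0.05 or less. The 5 called genes are 6.67% of the members, beside 6.3% of all genes called in this comparison, so the share among potassium channels was near the background. In the higher direction the background was 2% and in the lower direction 4.29%. Without HCR sedentary rat 5, 0 of the 75 genes were called, and over all genes the calls went from 285 higher and 610 lower to 17 higher and 54 lower.

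In the same sedentary comparison 30 members had an unadjusted p under 0.05 in the limma fit, beside 31.4% of all genes. Of these 27 were higher, beside 13% of all genes, and 3 were lower, beside 18.5%. Leaving out HCR sedentary rat 5 gave 19, with 16 higher and 3 lower, beside 9.12% and 14.3% of all genes. In 18 members the 4 HCR values did not overlap the 4 LCR values, against a background of 20.2%. Of these, 16 were higher in HCR, against 8.86% of all genes, and 2 were lower, against 11.4%. The 16 include genes of low signal such as Kcnh1, a neuronal Kv pore, Kcnk4, a stretch-sensitive two-pore channel, and the accessory subunits Kcnip1 and Kcnab3. The 2 lower ones are Kcnj11 and Kcnh2. When HCR sedentary rat 5 was left out, the groups did not overlap in 16 members that were higher and 4 that were lower, beside 10% and 12.7% of all genes.

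**Figure D1:**
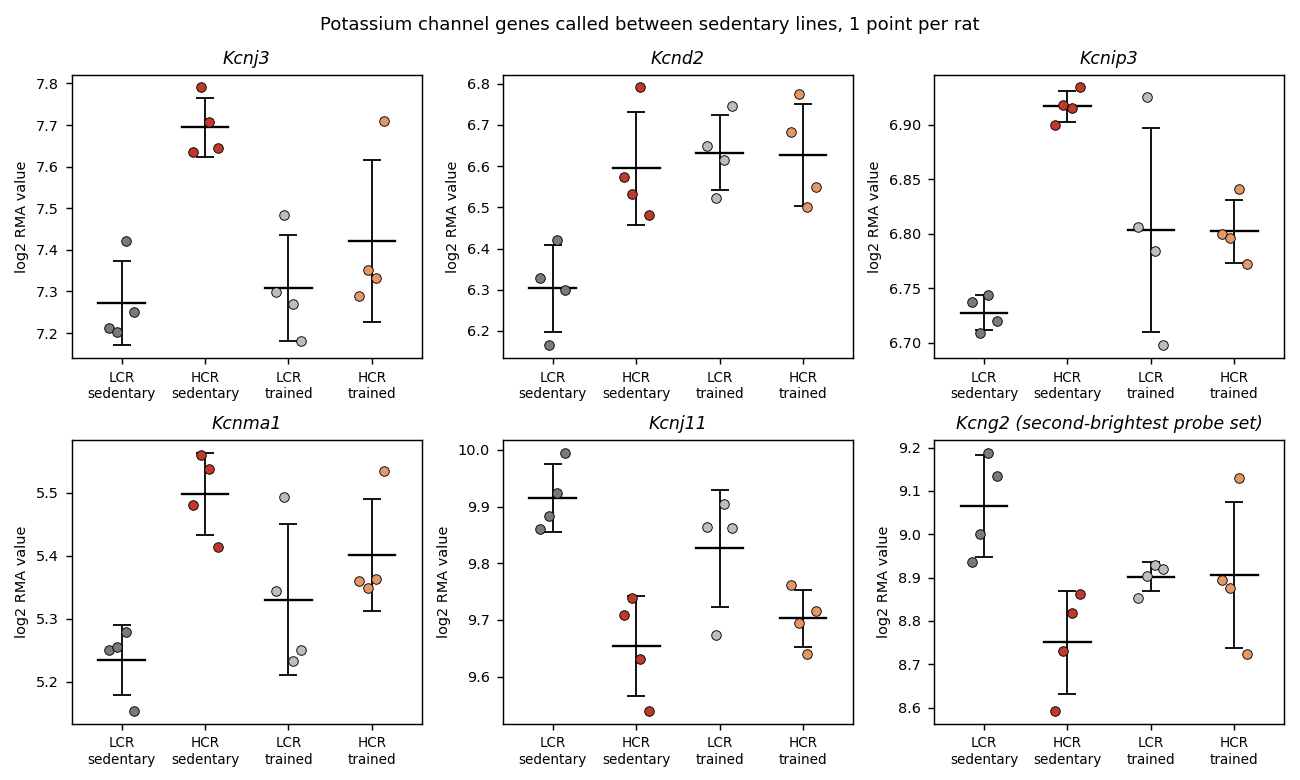
Log2 RMA value of each rat (points, 4 per group) with group mean and SD (bars) for the 5 genes called between sedentary lines and for the probe set of Kcng2 that was called beside its brightest one; each panel has its own axis range, which does not start at 0. In each panel the 2 sedentary groups do not overlap, while the 2 trained groups do.

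To show where transcription of the called genes begins, the 250 bases before the start site are printed for the 2 called genes above background that have an entry in the RefSeq promoter table (build GRCr8). Kcnd2 lies on the plus strand at chr4:50742235-50742484, and Kcnip3 on the minus strand at chr3:135195411-135195660. Capitals mark letters that match any of 4 short motifs, searched on both strands. These are the TATAAA box, the GC box (written GGGCGG), the GATA motif of GATA factors and the CACCC motif, which Krüppel-like factors are known to read.
Kcnd2: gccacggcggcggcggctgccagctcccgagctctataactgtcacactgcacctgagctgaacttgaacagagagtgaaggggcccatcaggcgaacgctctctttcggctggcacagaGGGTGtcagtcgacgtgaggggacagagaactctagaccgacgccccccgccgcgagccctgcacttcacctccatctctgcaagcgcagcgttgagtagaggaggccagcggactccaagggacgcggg
Kcnip3: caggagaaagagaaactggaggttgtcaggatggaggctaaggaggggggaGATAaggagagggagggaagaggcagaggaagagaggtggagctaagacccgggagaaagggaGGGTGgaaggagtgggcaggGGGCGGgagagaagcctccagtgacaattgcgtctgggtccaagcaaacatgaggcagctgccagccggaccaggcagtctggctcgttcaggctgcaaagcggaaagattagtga
Kcnd2 has 1 CACCC match, read on the minus strand as GGGTG, in a window of 64% G and C. Kcnip3 has 1 match each for GATA, the GC box and CACCC, in a window of 58.4% G and C. Of the 75 members 52 had a promoter entry, counted with 1 window per gene. The windows set beside them were all entries of this length, neither reduced to 1 per gene nor limited to genes on the array. Among the members' windows 67.3% held CACCC and 38.5% held GATA, against 49.2% and 55.9% of all 33469. The GC box stood in 55.8% of members' windows against 30.5%, and TATAAA in 3.85% against 12.9%. These are letter matches and were not set against base composition or the expression values.

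Kcnj3 and Kcnj5 form the channel that acetylcholine opens through G-protein subunits, a current best known in atrium and nodes. Kcnj3 (probe set 1388292_at) read 7.21, 7.20, 7.42 and 7.25 in the LCR sedentary rats and 7.63, 7.79, 7.71 and 7.64 in the HCR sedentary rats. Each HCR sedentary rat was above each LCR sedentary rat, a difference of 0.42 ± 0.09 (SE, n = 4 per group; limma, adjusted p = 0.0256). In trained rats Kcnj3 read 7.30, 7.48, 7.27 and 7.18 in LCR and 7.29, 7.35, 7.33 and 7.71 in HCR. These groups overlapped, with a difference of 0.11 and a 95% interval from -0.07 to 0.30 (adjusted p = 0.865). Averaged over training, the line difference was 0.27 (adjusted p = 0.0296). The dimmer probe sets of Kcnj3, at 0.11 and 0.08 in sedentary rats, did not pass.

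The sedentary call of Kcnj3 was lost without LCR sedentary rat 3 (adjusted p = 0.0536), LCR sedentary rat 6 (0.077), HCR sedentary rat 4 (0.0778) or HCR sedentary rat 5 (0.0743), while the difference stayed between 0.39 and 0.47 in all 16 fits that left out 1 array. Its partner Kcnj5 (1368560_at), Kir3.4, read 8.43, 7.87, 7.94 and 8.00 in LCR sedentary and 8.44, 8.28, 8.14 and 8.34 in HCR sedentary rats. LCR sedentary rat 2 lay inside the HCR range, and the difference of 0.24 ± 0.11 was not called (adjusted p = 0.157). Without that rat it was 0.36 (adjusted p = 0.0309). The second probe set of Kcnj5 differed by 0.25 (adjusted p = 0.11).

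Because Kir3 channels are known from atrium and nodes, markers of the atrium and of the conduction system stand beside this result. Of 8 measured atrial markers 1, Nr2f1, was near background. None was called in sedentary rats: Nppa, the atrial natriuretic peptide, differed by 0.65 (adjusted p = 0.182), Myl7, the atrial light chain, by 0.78 (adjusted p = 0.459) and Myl4, another atrial light chain, by -0.94 (adjusted p = 0.0843). The mean of the list, each gene centred on its own mean, ran from -0.12 to 0.50 in HCR sedentary and from -0.03 to 0.25 in LCR sedentary rats, so the groups overlapped (two-sided exact permutation p = 0.943, adjusted 0.965 over 44 tests). Averaged over training Nppa was higher in HCR by 1.01 (limma, adjusted p = 0.0217). Conduction system markers, 7 measured and 2 of them near background, were 0.16 higher in HCR sedentary rats (two-sided exact permutation p = 0.0571, adjusted 0.314). The groups overlapped, from 0.0008 to 0.20 in HCR and from -0.11 to 0.01 in LCR sedentary rats. In sign 6 were higher and 1 lower, beside 46.4% of all genes higher. Without HCR sedentary rat 5 the list difference was 0.124. The part of atrial or conduction tissue in the Kcnj3 difference was not tested. In tissue RNA, fewer cells of a type and less RNA per cell cannot be told apart.

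Kcnj11 forms the pore of the ATP-sensitive channel, which opens when the cell runs short of ATP. Its brightest probe set (1391007_s_at) read 9.86, 9.88, 9.92 and 10.00 in LCR sedentary and 9.71, 9.74, 9.63 and 9.54 in HCR sedentary rats. Each HCR rat was below each LCR rat, with a difference of -0.26 ± 0.06 (SE, n = 4 per group; limma, adjusted p = 0.0323). In trained rats the values were 9.86, 9.67, 9.90 and 9.86 in LCR and 9.76, 9.69, 9.64 and 9.72 in HCR. LCR trained rat 2 lay within the HCR range, and the difference was -0.12 with an interval from -0.25 to 0.01 (adjusted p = 0.708). Averaged over training Kcnj11 fell by 0.19 in HCR (adjusted p = 0.0257).

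A second probe set of Kcnj11 (1387698_at) differed by -0.33 in sedentary rats (adjusted p = 0.0504), and the dimmest one (1369782_a_at) by -0.14 (adjusted p = 0.491). Averaged over training the second probe set differed by -0.26 (adjusted p = 0.0415), a call lost under quantile normalization (0.126), under cyclic loess (0.136) and in 11 of 16 fits that left out 1 array. Quantile normalization of the summarised values took the difference of the brightest probe set from -0.26 to -0.14 and ended the call (adjusted p = 0.176). The sedentary call was also lost without LCR sedentary rat 3, 5 or 6 (adjusted p = 0.0558, 0.0691 and 0.0993) or HCR sedentary rat 4, 5 or 6 (0.0649, 0.0926 and 0.0717). The channel's other parts were not called in sedentary rats. Kcnj8, the Kir6.1 pore best known from vessels, differed by 0.05 ± 0.09, and the sulphonylurea receptors Abcc8 and Abcc9 by -0.19 and -0.12.

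Genes of the transient outward current did not move together. Kcnd2 (1379863_at) read 6.33, 6.16, 6.42 and 6.30 in LCR sedentary and 6.57, 6.53, 6.79 and 6.48 in HCR sedentary rats, with no overlap (0.29 ± 0.08, limma, adjusted p = 0.0477). In trained rats it read 6.65, 6.52, 6.61 and 6.74 in LCR and 6.68, 6.77, 6.50 and 6.55 in HCR. LCR sedentary rats were thus the low group, below every rat of the other 3 groups. The trained lines differed by -0.01 (95% interval -0.18 to 0.16). The second, dimmer probe set (1387476_at) differed by 0.40 between sedentary lines (adjusted p = 0.119). Among the 5 genes called on their brightest probe set, the call of Kcnd2 was the least steady. It held in 4 of 16 fits that left out 1 array. In the 12 others, which covered all 8 sedentary rats and 4 trained ones, the adjusted p was 0.0517 to 0.143.

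Kcnd3, the Kv4.3 pore, went the other way without passing the test. Its brightest probe set read 7.82, 7.80, 7.44 and 7.75 in LCR sedentary and 7.54, 7.39, 7.53 and 7.16 in HCR sedentary rats, a difference of -0.30 ± 0.16 with overlapping groups (adjusted p = 0.236). Its other probe sets differed by -0.30 and 0.16. Kcna4, the slowly recovering pore of this current, was near background and differed by 0.09 ± 0.12. Kcnip2, the main ventricular KChIP, read 12.04, 12.38, 12.11 and 12.43 in LCR sedentary and 12.03, 12.03, 12.25 and 12.03 in HCR sedentary rats, and -0.16 ± 0.09 was not called (adjusted p = 0.265).

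The second probe set of Kcnip2 differed by -0.28 (adjusted p = 0.198). The dimmest one (1368639_at), with a mean level of 4.88 near background, was called in the line difference averaged over training, 0.17 higher in HCR (adjusted p = 0.0229), while the brightest one differed there by -0.01; that call was lost under quantile normalization (adjusted p = 0.0794), cyclic loess (0.0755) and the replicate block (0.0559), and without HCR sedentary rat 4 (0.0521). The sign for Kcnip2 thus depended on the probe set. Kcnip3 (1376225_at) read 6.74, 6.71, 6.74 and 6.72 in LCR sedentary and 6.90, 6.92, 6.92 and 6.93 in HCR sedentary rats, 2 tight groups with no overlap (0.19 ± 0.05, adjusted p = 0.0422). Trained rats read 6.81, 6.93, 6.78 and 6.70 in LCR and 6.80, 6.80, 6.84 and 6.77 in HCR, between the sedentary groups apart from LCR trained rats 2 and 4. The other Kcnip3 probe set, near background, differed by -0.01. The Kcnip3 call was lost without any 1 of 8 arrays, LCR sedentary rats 2, 3, 5 and 6, HCR sedentary rats 4, 5 and 6 and HCR trained rat 5, at adjusted p of 0.0513 to 0.109.

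Genes of the delayed rectifier currents were not called on their brightest probe sets. Kcnh2, the rapid delayed rectifier pore hERG, read 7.65, 7.63, 7.62 and 7.85 in LCR sedentary and 7.59, 7.55, 7.48 and 7.51 in HCR sedentary rats. The groups did not overlap, yet the difference of -0.16 ± 0.07 did not pass (limma, adjusted p = 0.144). Kcnq1, the slow delayed rectifier pore, differed by -0.13 ± 0.10 and its partner Kcne1 by 0.36 ± 0.22. Kcne1 varied widely between rats: single rats reached 6.10 in HCR sedentary and 6.07 in HCR trained, against 4.88 to 5.55 in LCR sedentary. Kcne2 and Kcne3 differed by 0.13 and 0.06, Kcna5 by -0.14 ± 0.08 and Kcna2 by 0.17 ± 0.07 (adjusted p = 0.119). The Kv-beta subunits Kcnab1 and Kcnab2 differed by 0.17 and 0.25 (adjusted p = 0.24 and 0.0995).

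Kcng2 codes for a silent Kv subunit, which makes no channel alone but alters other Kv pores. Its brightest probe set (1374814_at) read 10.13, 10.16, 10.17 and 10.34 in LCR sedentary and 9.94, 10.03, 10.16 and 10.02 in HCR sedentary rats (-0.16 ± 0.06, adjusted p = 0.108). In trained rats the order was turned: 10.09, 9.95, 9.96 and 10.02 in LCR and 10.16, 10.23, 10.28 and 10.17 in HCR, with no overlap (0.20 ± 0.06, adjusted p = 0.402). The line by training interaction was 0.37 ± 0.09, with the lowest unadjusted p of any member in that comparison (0.000658) and an adjusted p of 0.475. A second probe set (1390473_at) was called between sedentary lines. It read 8.94, 9.00, 9.19 and 9.14 in LCR and 8.59, 8.73, 8.82 and 8.86 in HCR sedentary rats (-0.31 ± 0.08, adjusted p = 0.0422), and 0.00 separated the trained lines. That call was lost under quantile normalization (-0.19, adjusted p = 0.221) and without LCR sedentary rats 3, 5 or 6 or any HCR sedentary rat (adjusted p from 0.0554 to 0.117). The dimmest probe set, near background, differed by -0.04.

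The classical inward rectifiers Kcnj2 and Kcnj12 were near background and differed by 0.15 ± 0.10 and -0.01 ± 0.07 between sedentary lines. Kcnj4, the Kir2.3 pore, was called on a probe set near background (1369487_a_at), which read 5.13, 5.24, 5.25 and 5.02 in LCR and 5.43, 5.43, 5.32 and 5.34 in HCR sedentary rats (0.22, limma, adjusted p = 0.0477), and its brighter probe set differed by 0.26 (adjusted p = 0.105). The call on the dim probe set held in 4 of 16 fits that left out 1 array and reached an adjusted p of 0.141 without LCR sedentary rat 6.

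Kcnma1 (1370472_a_at), also near background, read 5.25, 5.25, 5.28 and 5.15 in LCR and 5.48, 5.56, 5.54 and 5.41 in HCR sedentary rats (0.26 ± 0.07, adjusted p = 0.0371). Trained rats read 5.34, 5.49, 5.23 and 5.25 in LCR and 5.36, 5.35, 5.36 and 5.53 in HCR, and these groups overlapped. Its remaining probe sets, at 0.12 and 0.05, did not pass. The call was lost under quantile normalization (0.19, adjusted p = 0.078) and without LCR sedentary rat 3, 5 or 6 or HCR sedentary rat 4, 5 or 6 (adjusted p from 0.0509 to 0.108). Kcnmb1, the smooth muscle subunit of this channel, differed by 0.14 ± 0.06 (adjusted p = 0.142). The smooth muscle and pericyte markers, 8 measured and 1 of them near background, averaged from -0.08 to 0.13 in HCR and from -0.22 to 0.01 in LCR sedentary rats, a difference of 0.18 (two-sided exact permutation p = 0.0571, adjusted 0.314). Their part in the Kcnma1 difference was not tested. The small calcium-activated pores Kcnn1 and Kcnn3 differed by 0.11 and 0.12 and were not called.

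Among two-pore channels, none was called in any comparison. Kcnk3, the acid-sensitive TASK-1 pore, read 8.98, 9.23, 9.52 and 9.18 in LCR sedentary and 9.26, 9.12, 8.96 and 9.09 in HCR sedentary rats (-0.12 ± 0.09), and the trained lines differed by -0.17 ± 0.09. Kcnk2, the stretch-sensitive TREK-1 pore, differed by 0.07 and 0.08 in the 2 settings, and Kcnk6 by 0.16 and 0.03. Kcnk1, near background, differed by 0.12 and -0.03.

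**Figure D2:**
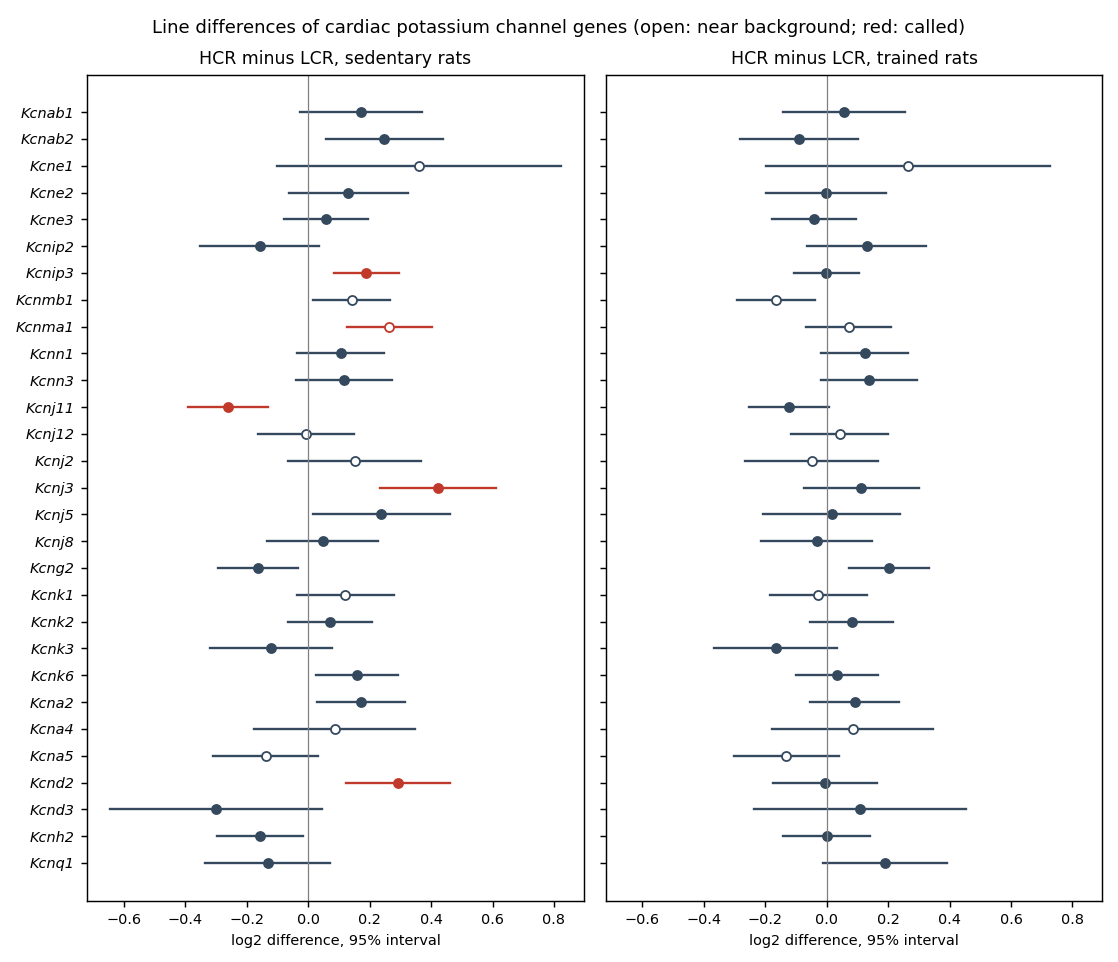
Log2 difference between the lines (HCR minus LCR) with 95% interval for 29 potassium channel genes named for their part in the heart or for a call, in sedentary rats (left) and trained rats (right), 4 against 4 rats each; open points are near background and red marks called genes. The 5 called genes are all on the left, and on the right each of their intervals includes 0.

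In sedentary rats most members under a level of 8 were higher in HCR, and 5 of the 6 at 8 or more were lower. Over all 75 genes the median line difference was 0.13, with 65 higher and 10 lower in HCR, beside a median of -0.0176 and 46.4% higher over all 14217 genes. Of the 34 members near background 32 were higher (median 0.122), beside 78% of all genes near background. Of the 35 members above background and under a level of 8, 32 were higher with a median of 0.139, beside 46.2% of 6786 such genes with a median of -0.0216. Within this band the difference over all genes changed with level. Its running median was 0.103 at a level of 5.60 and -0.118 at 7.98, so the 46.2% is not matched to the members' levels. The 6 members at 8 or more had a median of -0.145, beside a median of -0.111 and 16.8% higher among all such genes. The receptor probe sets shifted in the same way: 40 of the 41 were higher in HCR sedentary rats, with a median of 0.122. Without HCR sedentary rat 5, 64 members were higher and 11 lower (median 0.116), beside 47% higher over all genes. Without that rat 33 of the 34 near background, 30 of the 35 above it and under 8, 1 of the 6 at 8 or more and 39 of the receptor probe sets were higher.

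**Figure D3:**
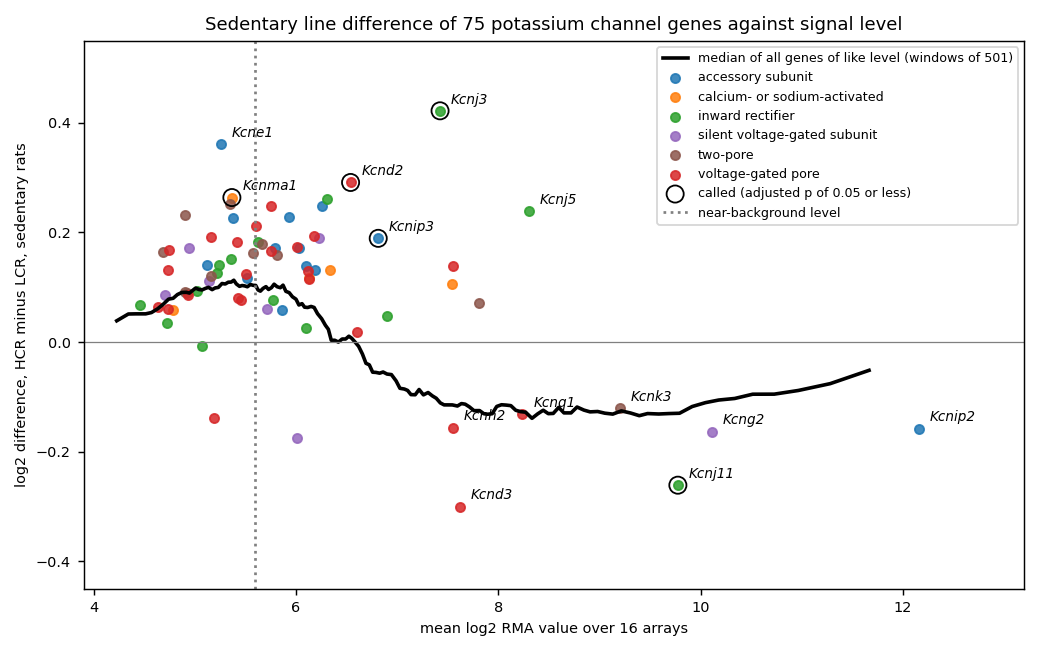
Log2 difference between sedentary lines (HCR minus LCR) of the 75 potassium channel genes against their mean log2 RMA value, coloured by subfamily, with the running median of all genes of like level (black line) and the near-background level of 5.59 (dotted). Most dim genes (32 of the 34 near background) lie above 0 and most of the bright ones (5 of 6) below it, while Kcnj3 and Kcnd2 lie above the line and Kcnj11 below it.

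Arrays differed in spread along with this. The interquartile range of an array was 2.02 ± 0.057 (SD, n = 4) in HCR sedentary and 2.17 ± 0.026 in LCR sedentary rats, with no overlap, or 2.03 ± 0.056 (SD, n = 3) in HCR sedentary rats without rat 5. It was 2.13 ± 0.052 and 2.15 ± 0.097 in HCR and LCR trained rats. The mean of the 34 dim members ran from 5.11 to 5.20 in HCR sedentary and from 5.01 to 5.09 in LCR sedentary rats, and the highest HCR value was 5.18 without rat 5. The part of array spread in the members' differences was not tested gene by gene. After quantile normalization of the summarised values 60 of 75 members were higher with a median of 0.0844, and after cyclic loess 57 with a median of 0.0693. Of the 35 members above background and under 8, 29 and 28 were higher in these fits. Kcnj3 and Kcnip3 were called under both, and Kcnd2, Kcnma1 and Kcnj11 under neither.

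**Figure D4:**
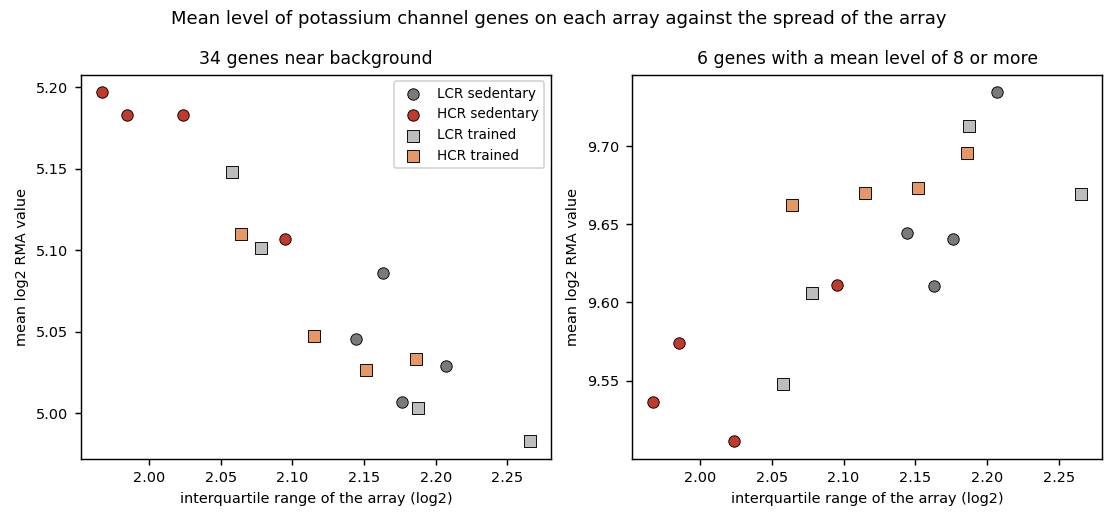
Mean log2 RMA value of the 34 potassium channel genes near background (left) and of the 6 genes with a level of 8 or more (right) on each of the 16 arrays, against the interquartile range of that array; colours mark line and circles or squares mark sedentary or trained rats. HCR sedentary rats 4, 5 and 6 lie at the narrow end. HCR sedentary rat 3, at 2.10, is wider than LCR trained rats 1 and 2 and HCR trained rat 6. Dim genes run from 5.11 to 5.20 on HCR sedentary and from 5.01 to 5.09 on LCR sedentary arrays. LCR trained rat 2 (5.15) and HCR trained rat 6 (5.11) fall within the HCR sedentary range.

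Each subfamily had more members higher than lower in HCR sedentary rats. In sedentary rats 12 of 13 accessory subunits were higher in HCR (median 0.171), as were 13 of 15 inward rectifiers (0.0928), 20 of 24 voltage-gated pores (0.127), 10 of 11 two-pore channels (0.159), 5 of 7 silent subunits (0.0853) and 5 of 5 calcium- or sodium-activated channels (0.117). In this order 4, 7, 11, 7, 3 and 2 of them were near background. Higher were 46.4% of all genes, 78% of those near background and 40 of the 41 receptor probe sets (median 0.122). These shares were not matched to the levels of each subfamily. Within the 27 measured genes of the cardiac list 19 were higher and 8 lower, and 3 were called higher and 1 lower, beside 2% of all genes called higher and 4.29% called lower. Without HCR sedentary rat 5 these 27 went 20 higher and 7 lower with none called, and the subfamilies' medians ran from 0.035 in silent subunits to 0.128 in accessory subunits. Each subfamily's median stayed above 0 under quantile normalization, median centring and cyclic loess, where it lay between 0.0217 and 0.116. In trained rats the members fell to both sides of 0, 43 higher and 32 lower with a median of 0.016. Over all genes 48.6% were higher there, with a median of -0.00337.

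No potassium channel gene was called between the trained lines, where limma called 0.0914% of all genes. At an unadjusted p under 0.05 there were 3 members, 4% of them, beside 8.4% of all genes. Kcng2 was the only member without overlap, against a background of 3.36%. After Kcng2, the lowest p values in the higher direction were those of Kcnc2, a fast Kv3 pore (0.16, adjusted p = 0.647), and Kcnq1 (0.19, adjusted p = 0.716). In the lower direction they were those of Kcnmb1 (-0.16, adjusted p = 0.529), Kcnj11 and Kcnk12 (-0.18, adjusted p = 0.728). None of these passed.

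Training changed no member past the threshold in HCR, where limma called 0% of all genes. An unadjusted p under 0.05 was reached by 11 members, 14.7% of them, beside 14.7% of all genes, and 8 members did not overlap, beside 8.29%. Of these 8, 7 were lower, beside 3.78% of all genes, and 1 was higher, beside 4.51%. Leaving out HCR sedentary rat 5 gave 7 lower and 3 higher, beside 4.62% and 5.66%. The lowest p was that of Kcnmb1, which read 5.19, 5.27, 5.33 and 5.27 in sedentary and 4.99, 4.84, 5.00 and 5.03 in trained HCR rats. Each trained rat was below each sedentary one, at values near background (-0.30 ± 0.06, adjusted p = 0.145). Kcnj15, a near-background Kir pore, differed by -0.24 (adjusted p = 0.191) and Kcnab2 by -0.33 (adjusted p = 0.21).

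In the higher direction the members of lowest p were Kcng2 (0.17, adjusted p = 0.268), Kcnd3 (0.34, adjusted p = 0.365) and Kcnq1 (0.17, adjusted p = 0.439). Kcnd3 read 7.54, 7.39, 7.53 and 7.16 in sedentary and 7.96, 7.87, 7.59 and 7.55 in trained HCR rats, without overlap. Over all members 13 were higher and 62 lower with training in HCR, a median of -0.0716. Over all genes 48.1% were lower, and the median was 0.0059. Of the 35 members above background and under 8, 6 were higher and 29 lower (median -0.0472), beside 51.6% higher among all such genes. That share is not matched to the members' levels, since the running median of all genes was -0.0691 at a level of 5.60 and 0.0669 at 7.98. Without HCR sedentary rat 5, 10 of these 35 were higher, beside 50.7%. All 6 members at 8 or more were higher, beside 79.4% of such genes. Of the 34 near background 33 were lower, beside 76.7% of all genes near background. All 41 receptor probe sets were lower too, with a median of -0.12. Without HCR sedentary rat 5, 15 members were higher and 60 lower (median -0.0659), all 34 near background and 36 of the receptor probe sets were lower, and 8 members had an unadjusted p under 0.05, beside 9.58% of all genes. The trained minus sedentary and the HCR minus LCR values share the HCR sedentary rats, so the 2 patterns are not separate observations.

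In LCR training also changed no member past the threshold, with 0% of all genes called. At an unadjusted p under 0.05 there were 5 members, 6.67% of them, beside 6.77% of all genes. Without overlap were 3, Kcnd2, Kcng2 and Kcnh2, beside 3.42% of all genes. Kcnd2 was 0.33 ± 0.08 higher in trained LCR rats (adjusted p = 0.45) and Kcnj5 0.36 ± 0.11 (adjusted p = 0.616), with Kcnj5 reading 8.38, 8.31, 8.41 and 8.57 in trained and 7.87 to 8.43 in sedentary LCR rats. Kcnk5, a two-pore channel near background, differed by 0.16 (adjusted p = 0.898). In the lower direction were Kcng2 (-0.19, adjusted p = 0.629), Kcnh2 (-0.20, adjusted p = 0.649) and Kcna5 (-0.20, adjusted p = 0.827). The members' median was 0.0138, with 50 higher and 25 lower, beside a median of -0.00454 and 48% higher over all genes.

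**Figure D5:**
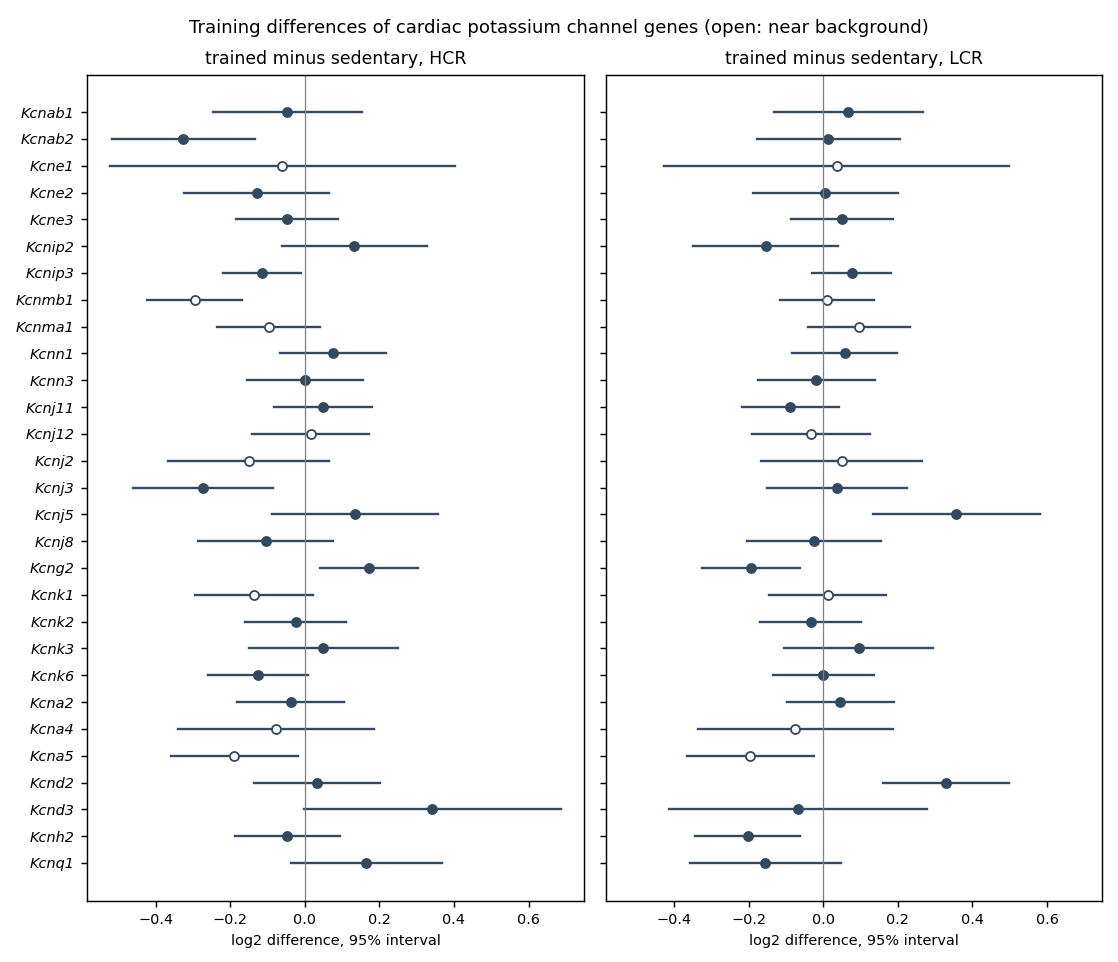
Log2 difference with training (trained minus sedentary) with 95% interval for the same 29 potassium channel genes, in HCR (left) and LCR (right), 4 against 4 rats each; open points are near background. No gene was called in either line, and the widest separation from 0 is that of Kcnmb1 in HCR and of Kcnd2 in LCR relative to their intervals.

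The interaction of line and training, the training difference in HCR minus that in LCR, was called for 0 members and 0% of all genes. At an unadjusted p under 0.05 there were 10 members, 13.3% of them, beside 10.7% of all genes. There were 8 without HCR sedentary rat 5, beside 8.07%. Beside Kcng2 the lowest p values were those of Kcnq1 (0.32) and Kcnip2 (0.29) in the positive direction and Kcnmb1 (-0.31), Kcnip3 (-0.19) and Kcnab2 (-0.34) in the negative one, at adjusted p of 0.475 to 0.497. So the lack of a called line difference in trained rats does not show that the sedentary differences of Kcnj3 (interaction -0.31, adjusted p = 0.487) or Kcnj11 (0.14, adjusted p = 0.589) went away with training.

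Averaged over training, Kcnj3 and Kcnj11 were the only members called between the lines, beside 4.92% of all genes. In the higher direction Kcnma1 (0.17, adjusted p = 0.0521) and Kcnab3 (0.16, adjusted p = 0.0854) had the lowest p after Kcnj3. In the lower direction Kcna5 (-0.14, adjusted p = 0.162) and Kcnk3 (-0.14, adjusted p = 0.2) had the lowest p after Kcnj11, and none of these 4 passed. Under quantile normalization the averaged difference of Kcnj11 was -0.12 and not called (adjusted p = 0.121). Both averaged calls were lost without HCR sedentary rat 5 (adjusted p = 0.0589 for Kcnj3 and 0.0551 for Kcnj11), without LCR sedentary rat 6 (0.0584 and 0.0556), LCR trained rat 3 (0.0592 and 0.056) and LCR trained rat 4 (0.0623 and 0.0518). Kcnj3 was also lost without LCR sedentary rat 3 (0.0532) or HCR sedentary rat 4 (0.065), and Kcnj11 without HCR trained rat 5 (0.0524). Without LCR trained rat 2 there were 7 calls. Calls over all genes were not counted in that fit, so the 7 have no share beside them. Averaged over the lines, training gave 0 called members, beside 0.00703% of all genes. At an unadjusted p under 0.05 there were 8 members, 10.7% of them, beside 10.6% of all genes. Kcnj5 (0.25), Kcnd2 (0.18) and Kcnn1 (0.07) had the lowest p upward and Kcnmb1 (-0.14), Kcna5 (-0.19) and Kcnj15 (-0.14) downward, at adjusted p of 0.353 to 0.684.

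RNAs of 18 measured proteins that hold or regulate these channels went both ways between sedentary lines, 10 up and 8 down in HCR (median 0.0576). Of the 18, 2 were called, both lower, beside 4.29% of all genes called lower. Akap9, the scaffold of the slow delayed rectifier, read 7.73, 7.85, 7.98 and 8.09 in LCR and 7.76, 7.55, 7.41 and 7.56 in HCR sedentary rats, with HCR sedentary rat 3 inside the LCR range (-0.34 ± 0.09, adjusted p = 0.0422). Its line difference averaged over training was -0.25 (adjusted p = 0.0425), a call lost under quantile normalization (0.0737), under cyclic loess (0.0755) and in 12 of 16 fits that left out 1 array (adjusted p up to 0.0889). Nedd4l, a ubiquitin ligase that removes ion channels from the membrane, read 7.14, 7.12, 7.08 and 7.43 in LCR and 6.83, 6.83, 6.77 and 7.01 in HCR sedentary rats, without overlap (-0.33 ± 0.09, adjusted p = 0.042). Quantile normalization ended both sedentary calls (adjusted p = 0.0962 for Akap9 and 0.0726 for Nedd4l). So did leaving out HCR sedentary rat 5 (0.128 and 0.12), HCR sedentary rat 4 (0.107 and 0.107) or LCR sedentary rat 3 (0.0643 and 0.0626), 5 (0.0921 and 0.0609) or 6 (0.126 and 0.12). Akap9 was also lost without HCR sedentary rat 6 (0.0774) or HCR trained rat 5 (0.0516), and Nedd4l without HCR sedentary rat 3 (0.0546).

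Of 10 transcription factors known to set cardiac repolarisation genes 2 were called between sedentary lines, both lower in HCR, beside 4.29% of all genes. In sign 9 of 10 were lower with a median of -0.239 (-0.187 without HCR sedentary rat 5), beside 64.4% of all genes above background. That share is not matched by level. The factors had mean levels from 5.85 to 9.39. Of all genes above background and under 8, 46.2% were higher, and of those at 8 or more 16.8% (median -0.111). Irx4, a ventricular homeobox factor, read 8.58, 8.92, 8.66 and 9.04 in LCR and 8.54, 8.10, 8.27 and 7.99 in HCR sedentary rats, without overlap (-0.58 ± 0.12, adjusted p = 0.0229). It was also lower averaged over training (-0.49, adjusted p = 0.00718). Klf15, a Krüppel-like factor known to drive Kcnip2, read 9.46, 9.92, 9.80 and 9.51 in LCR and 9.07, 9.34, 8.92 and 9.03 in HCR sedentary rats, without overlap (-0.58 ± 0.12, adjusted p = 0.0261). The trained lines differed by 0.07 in Klf15 (adjusted p = 0.965). With mean levels of 8.44 and 9.39, Irx4 and Klf15 lie where most genes were lower in HCR sedentary rats. Quantile normalization left the sedentary differences at -0.46 and -0.47 but ended both calls (adjusted p = 0.055 and 0.0622), as did leaving out HCR sedentary rat 5 (0.0595 and 0.0803), LCR sedentary rat 3 (0.053 and 0.0567) or LCR sedentary rat 6 (0.077 and 0.0617). Irx4 was also lost without HCR sedentary rat 4 (0.0706), and Klf15 without LCR sedentary rat 5 (0.0609) or HCR sedentary rat 6 (0.052). The averaged difference of Irx4 was called in all the alternative fits run.

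The sodium-potassium pump, which restores the potassium gradient, gave 0 calls in 5 measured genes. The 2 lowest p values between sedentary lines were those of Fxyd1 (-0.05, adjusted p = 0.659) and Atp1b3 (-0.05, adjusted p = 0.703). The pacemaker channels gave 0 calls in 3. Hcn4 read 6.85, 6.87, 6.64 and 6.60 in LCR and 6.90, 7.00, 7.01 and 7.00 in HCR sedentary rats, without overlap, at 0.23 ± 0.08 (limma, adjusted p = 0.0787, or 0.178 without HCR sedentary rat 5), and Hcn3 differed by 0.14 (adjusted p = 0.168).

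Marker lists of other cells also differed between the sedentary groups, and none passed the test after adjustment. On the centred list scale, ventricular markers were lower in HCR by 0.09 and fibroblast markers by 0.29, while markers of neurons and Schwann cells were 0.149 and of adipocytes 0.121 higher, each without overlap (two-sided exact permutation p = 0.0286, the smallest this design allows, adjusted 0.21 over 44 tests). Neuron and Schwann cell markers ran from 0.05 to 0.16 in HCR and from -0.09 to -0.03 in LCR sedentary rats, with 5 of 10 near background. Adipocyte markers had 4 of 6 near background. The receptor probe sets, read as background, were higher by a median of 0.122 in the same comparison, 40 of 41 of them. The part of that shift in the list differences was not tested. With HCR sedentary rat 5 left out the differences were -0.08 for ventricular, -0.28 for fibroblast, 0.124 for neuron and Schwann cell and 0.124 for adipocyte markers. Several members of low signal, among them Kcnh1, Kcnk4 and Kcnk9, are best known from neurons, and the part of nerve RNA in their values was not tested.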

How the data were processed

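Expression was measured in 16 left ventricles, 1 array per rat. The deposited log2 values were made by the authors with RMA (background correction, quantile normalization of probes and a linear model per probe set), per the series' design text; the submitters' processing notes list RMA and limma. The base of the logarithm is not stated there and was taken as 2 from the range of 3.24 to 14.54. No count or depth exists, and 4 arrays per group limit the precision. Of 31099 probe sets, 57 controls were left out. Symbols came from the platform annotation: 20826 probe sets had 1, 436 several and 9780 none. All 75 member gene IDs were found in the RefSeq gene table.

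The fit used limma (version 3.58.1, under R 4.3.3; lmFit, contrasts.fit, eBayes) on all 31042 probe sets, with 1 mean per group over 16 arrays and 12 residual degrees of freedom. There were 7 two-sided comparisons, adjusted by Benjamini-Hochberg over all probe sets. Values after ± are standard errors unless marked SD, and adjusted p-values of genes are from this fit. The fit was tested on simulated data. Rats were grouped by their titles, which mark them as separate animals. Scan dates were not used here.

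Members, gene lists and tests were chosen with earlier results of these data known. Named were members called on any probe set with all their probe sets, the 3 members of lowest p per direction where fewer than 3 were called, the cardiac list, and called members of the 4 partner lists or the 2 of lowest p. Abcc8, Abcc9, Kcnj8 and the dim genes named for overlap, brightness or level were named after their values were seen. Same-numbered rats of different groups are different animals, and their deviations correlated at r of -0.231 to 0.261, so numbers did not pair them.

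Alternatives were quantile normalization and median centring of the summarised values, a filter on dim probe sets, 1 probe set per gene, any called probe set, a trended robust prior, array weights, a rat number block, only the 8 arrays compared and leaving out each array. Cyclic loess was chosen after seeing the data.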

Additional observations from a re-analysis of the deposited data

Results flagged for a closer look

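In groups of 4, 8 of 104 sets of values tested had 1 rat far from the other 3 by Dixon's ratio at the 95% level, and chance gives about 1 in 20. HCR trained rat 6 stood apart in 4 genes: Kcnj3 at 7.71 (others 7.29 to 7.35), Kcnma1 at 5.53 (5.35 to 5.36), Kcna2 at 6.25 (5.97 to 6.01) and Kcnj5 at 8.25 (8.49 to 8.50). With Kcnj3 at 7.71, this rat lay within the range of the HCR sedentary rats, while the other 3 trained HCR rats lay within that of LCR sedentary rats.

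Kcnh2 was at 7.85 in LCR sedentary rat 6 (others 7.62 to 7.65), and Kcnip2 at 12.25 in HCR sedentary rat 5 (others 12.03 to 12.03). The dim probe set of Kcnj4 was at 5.19 in LCR trained rat 4 (others 5.28 to 5.28). Xist was at 4.54 in HCR sedentary rat 5, where the other 3 rats of that group read 9.08 to 9.87 on the same probe set.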

How the results depend on the processing

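The count of 5 called members between sedentary lines went to 2 under quantile normalization and 2 under cyclic loess (Kcnj3 and Kcnip3 in both), 3 with the trended robust prior and 11 with array weights; the cause was not tested. Leaving out 1 array gave 0 to 5 calls: 0 without LCR sedentary rat 3 or 6 or HCR sedentary rat 4 or 5, 1 (Kcnj3) without LCR sedentary rat 5 or HCR sedentary rat 6, and 3 without HCR trained rat 5. The line difference averaged over training, with 2 calls, gave 1 under quantile normalization, 1 under cyclic loess, 1 (Kcnj11) with the rat number as a replicate block, and 0 to 7 when 1 array was left out. The block gave 6 calls between sedentary lines and 0 in the other comparisons, and it does not pair the animals. Training in HCR gave 1 call, Kcnmb1, with array weights. The other comparisons with 0 calls stayed at 0 in all left-out fits. Kcnj3 held its sedentary call in 9 of 9 settings and 12 of 16 left-out fits, Kcnj11 in 7 of 9 and 10 of 16, Kcnip3 in 7 of 9 and 8 of 16, Kcnma1 in 6 of 8 and 10 of 16, and Kcnd2 in 3 of 9 and 4 of 16. No called gene changed sign in its comparison. Over all genes the sedentary calls split 285 higher to 610 lower as deposited, 119 to 156 after quantile normalization, 140 to 1450 after median centring and 110 to 154 after cyclic loess. Apart from these and the fit without HCR sedentary rat 5, calls over all genes were not counted. Member counts of the other fits, such as the 11 with array weights, thus have no share beside them. Signal near background compresses differences for the 34 dim members.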
